A study of Rattus norvegicus with 18 samples.

Results

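Broad H3K4me3 domains were taken as the merged peaks of at least 4 kb on rat chromosomes 1 to 20, and 538 of 16364 merged peaks (3.29%) met this rule. The mark was profiled by ChIP-seq in Schwann cells in primary culture, the glia of peripheral nerves, which the study grew from sciatic nerves of 3-month-old Fisher rats, expanded with neuregulin and forskolin and then cultured without either. There were 9 ChIP libraries, 3 each of control cells without treatment, of cells exposed to cAMP for 30 min and collected 30 min after washout, and of cells given the same exposure and collected 3 h 30 min after washout. The agent was a membrane-permeable cAMP analogue, at a dose that is 100 μM in the sample characteristics and 50 μM in the treatment notes. A genomic input library accompanied each ChIP library, and a second run is noted for both libraries of 30 min replicate 3. Peaks had been called in narrow mode and merged over the treatments before counting, so each domain has a single width for all libraries, and a long domain can be a run of joined narrow calls. That width comes from the same libraries and cannot change with condition in these data. The comparison of conditions within a domain does not use the width, but the domains were chosen by it. A region may have reached 4 kb through calls in the condition where its mark was highest. The part of this choice in the counts of called domains was not tested.

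H3K4me3 is the trimethyl mark that SET1 and MLL complexes place on nucleosomes around active and CpG-rich promoters and that the KDM5 demethylases remove. At most promoters the mark is confined to a few nucleosomes on either side of the transcription start. At a small set of genes it spreads over several kb into the gene body, and such broad domains are known in many tissues for covering regulators of cell identity.

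Coordinates are those of the deposited files on Rnor_6.0. A gene annotation of that build was not used here, so domains are given by position, neither the genes beneath them nor exons and UTRs were assigned, and the cell type was not checked against marker genes. A gene name could be attached to 4 domains, because their mean reads per kb matched a single entry each in the lists of changing genes that accompany the study to within 0.0101%, with the next closest peak at least 183 times further away. All 4 were among the 19 peaks matched to the list of genes that gained the mark from 30 min to 3 h 30 min. The list of losses is for another comparison, control to 30 min, and 0 of its 18 matched peaks were domains. Domains made up 3.29% of all peaks. The list of gains was selected on these samples for a rise, so the direction of these domains in that comparison is a description and not independent evidence. The named domains were Peak_8371 (Mir3065), Peak_2337 (Kank2), Peak_1153 (Dlx2) and Peak_4585 (AABR07044049.1).

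Of the 4 names, 3 matched the RefSeq table of the newer GRCr8 build, and only names and sequences were taken from it. Mir3065 carries the name of the second widest domain. It encodes a microRNA that lies antisense to Mir338, within the kinase gene Aatk, and miR-338 is known from myelinating glia of the central nervous system. The hairpins of both overlap over 66 bases of GRCr8 chromosome 10, from 105796342 to 105796407. The mature products of both are shown because they come from opposite strands of one locus, of which Mir3065 gives the domain its name. Capitals mark the seed, bases 2 to 8, and no seed was shared between the products.
rno-miR-3065-5p: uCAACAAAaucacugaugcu
rno-miR-3065-3p: uCAGCACCaggauauuguugggga
rno-miR-338-3p: uCCAGCAUcagugauuuuguuga
rno-miR-338-5p: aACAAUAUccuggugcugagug

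Kank2 encodes a scaffold protein of the cortical cytoskeleton. Its promoter, from the RefSeq table of 250 bases before to 50 bases after each start, is shown because H3K4me3 lies around CpG-rich starts and the domain carries the gene's name. The stretch is chr8:28616944-28617243 of GRCr8 on the minus strand, and capitals mark each CG.
Kank2 promoter: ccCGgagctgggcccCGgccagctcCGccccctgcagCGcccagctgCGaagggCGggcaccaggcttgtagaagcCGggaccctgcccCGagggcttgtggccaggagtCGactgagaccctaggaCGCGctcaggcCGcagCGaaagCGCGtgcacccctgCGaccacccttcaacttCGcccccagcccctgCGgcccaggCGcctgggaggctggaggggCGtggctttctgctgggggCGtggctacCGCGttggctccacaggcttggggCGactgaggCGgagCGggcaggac
It held 26 CG dinucleotides, against a median of 7 over 33469 promoters of the same length, and 15.2% of promoters held at least as many. Its GC content was 73.3%. The cAMP response element TGACGTCA, the site of the CREB family, was not found in it on either strand, and 1.83% of all promoters held it. The shorter core TGACG or its complement CGTCA, which the full element contains, was also not found, against 21.2% of promoters that held it. The absence of these letters says nothing about the factor elsewhere in the domain, and the promoter could not be placed within the domain because the builds differ.

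Domain width ran from 4001 to 16058 bp around a median of 4774 bp, against a median of 1540 bp over all peaks. Most were near the limit: 219 reached 5000 bp, 96 reached 6000 bp, 25 reached 8000 bp and 8 reached 10000 bp. Together they covered 2.80 Mb, or 9.87% of the length of all peaks. The narrowest were Peak_964 at chr20:4369034-4373034, with 4001 bp, and Peak_13866 at chr8:12924740-12928741, with 4002 bp. Just outside the limit lay Peak_4427 at chr18:77321724-77325722, with 3999 bp, and Peak_10734 at chr2:113983648-113987645, with 3998 bp. In control libraries Peak_964 held 34.7 to 36.5 and Peak_10734 51.0 to 52.3 reads per kb per 1000000 reads in peaks.

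Chromosomes 1, 10 and 7 held the most domains, with 63, 60 and 54. As a share of a chromosome's peaks, domains were most frequent on chromosome 20 (25 of 455 peaks, 5.49%) and chromosome 7 (4.96%) and least frequent on chromosome 4 (2.44%). Another peak lay within 5 kb of 181 domains (33.6%), compared with 23.1% of the narrower peaks, and 64 domains lay within 50 kb of another domain. Some neighbors were close to touching. Peak_6985 and Peak_6986 on chromosome 7 were 116 bp apart and spanned 13796 bp together. Peak_9789 and Peak_316 on chromosome 17 were 162 bp apart, and Peak_2201 and Peak_2202 on chromosome 7 were 177 bp apart. The last pair spanned 16968 bp, more than the widest single domain, so the order of the widest domains depends on where the merging of peaks stopped.

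The widest domain was Peak_2218 at chr7:120393831-120409888, with 16058 bp. It was followed by Peak_8371 (Mir3065) at chr10:109189520-109202389 (12870 bp), Peak_13931 at chr1:221197119-221209425 (12307 bp) and Peak_2595 at chr9:43129063-43140616 (11554 bp). Next came Peak_15897 at chr12:13801155-13812433 (11279 bp), Peak_5870 at chr4:147884462-147895219 (10758 bp) and Peak_11865 at chr3:171332645-171342769 (10125 bp). The 10 widest were completed by Peak_10196 at chr18:31347749-31357760 (10012 bp), Peak_2201 at chr7:117252107-117261943 (9837 bp) and Peak_14875 at chr1:264058055-264067734 (9680 bp).

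Reads in peaks ranged from 13762905 to 17160987 per ChIP library and from 27344 to 835518 per input library. Reads were expressed per kb of peak and per 1000000 reads in peaks after TMM scaling, and this density is used for all levels below. Over the 9 ChIP libraries the mean density of a domain ranged from 6.35 to 86.5, with a median of 38.4, whereas the 15314 narrower peaks of chromosomes 1 to 20 had a median of 31.8. In control libraries the densest domain exceeded the sparsest by 12.2-fold. Width and density were unrelated within the domains (Spearman's rho = -0.04 across 538 domains, which share libraries and are not independent). A domain held 418 to 10596 reads per library on average, with a median of 2827, and no domain held fewer than 207 in any ChIP library. Since duplicates had been removed, a position can hold at most 1 read per strand. In the fullest library of each domain, 6.94% to 68.0% of the possible read starts were filled, with a median of 33.3%.

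**Figure D1:**
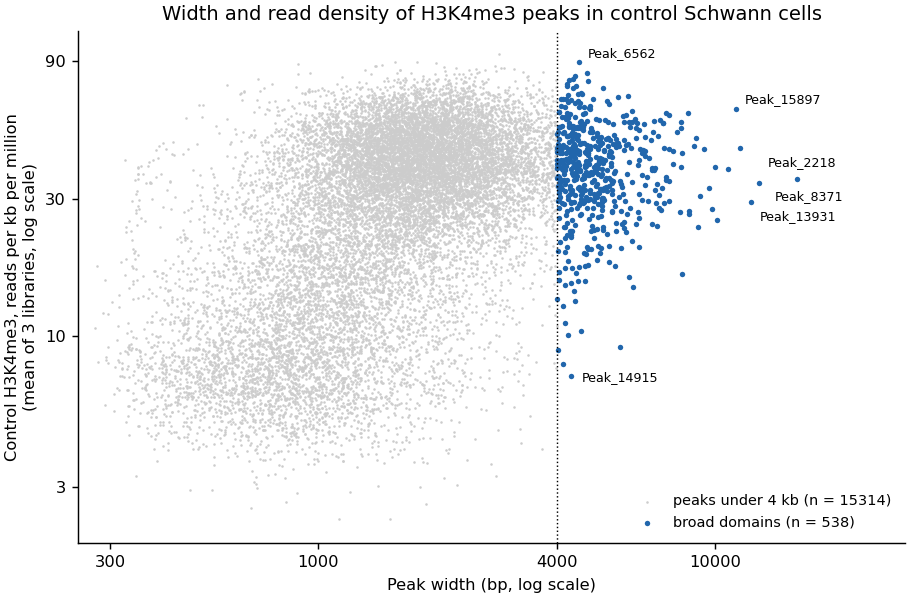
Each point is a merged peak on chromosomes 1 to 20, with its width in bp (log scale) against its mean H3K4me3 density in the 3 control libraries (reads per kb per 1000000 reads in peaks, log scale). The 538 broad domains (blue, right of the dotted line at 4000 bp) lie between 7.32 and 88.9, within the range of the 15314 narrower peaks (gray, 2.32 to 94.6).

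The densest domains in control cells were Peak_6562 at chr6:110901153-110905703, Peak_15465 at chr10:90262182-90266956 and Peak_9791 at chr17:1082898-1087329. Peak_6562 had a density of 90.7, 88.8 and 87.3 in the control libraries, 79.6, 84.5 and 81.6 at 30 min and 85.3, 88.4 and 92.3 at 3 h 30 min. All of its 30 min libraries were below the control libraries, but the decrease of 0.12 on the log2 scale did not pass the quasi-likelihood test of edgeR (Benjamini-Hochberg adjusted p = 0.0742). The sparsest domains were Peak_14915 at chr1:267238584-267242923, Peak_6358 at chr6:2313805-2317945 and Peak_13015 at chr6:25609212-25613229, with control densities between 7.08 and 9.58. Peak_6358 differed little between conditions, from 7.33 to 9.05 over the 9 libraries, with the conditions overlapping.

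Summed over all domains, reads per kb exceeded those of the narrower peaks by 1.11-fold (range 1.07 to 1.13), and did so in 9 of 9 ChIP libraries. The peaks and their widths had been called on these libraries, so this ratio is a description without a test. Against the 2117 peaks of 2500 to under 4000 bp, domains were slightly less dense in every library, at 0.978-fold (0.950 to 0.993). In the 9 input libraries the corresponding ratio of domains to narrower peaks was 1.01 (0.974 to 1.03, above 1 in 7 of 9 libraries, exact two-sided sign-flip permutation p = 0.262).

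Enrichment was computed as a library's share of all counted reads in a region over the same share in input. With the summed inputs of the same condition, the enrichment of domains was 1.11-fold that of narrower peaks (1.06 to 1.14, above 1 in 9 of 9 libraries) and 0.975-fold that of peaks of 2500 to under 4000 bp (from 0.942 to just under 1, above 1 in 0 of 9). Against all 9 inputs pooled, single domains were enriched 5.89-fold to 82.2-fold with a median of 36.5-fold, and 537 of 538 were at least 4 times above input in every ChIP library, compared with 94.95% of the narrower peaks. The pooled inputs held 136 to 1280 reads per domain. The most enriched were Peak_5851 at chr4:131955654-131960442 (82.2-fold), Peak_8988 at chr14:29223811-29228106 (75.1-fold) and Peak_6562 (74.2-fold). The least enriched were Peak_14915 (5.89-fold), Peak_6358 (7.79-fold) and Peak_4028 at chr1:89484229-89488498 (8.24-fold).

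The level of enrichment was not comparable between conditions. It was 36.0 to 37.5 in control, 30.1 to 31.7 at 30 min and 52.9 to 57.3 at 3 h 30 min with each condition's own inputs, but 37.4 to 38.9, 34.9 to 36.9 and 36.4 to 39.5 with all 9 inputs pooled. The inputs of control and 30 min replicate 3 had 2.95% and 3.55% of their reads in peaks, against 1.05% to 2.31% in the other inputs, and the part of these inputs in the levels was not tested.

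The share of reads in peaks that fell in domains was 11.0%, 11.0% and 10.9% in the control libraries, 11.0%, 11.0% and 10.9% at 30 min and 10.8%, 10.6% and 10.5% at 3 h 30 min. All 3 h 30 min libraries were below all others, while control and 30 min libraries overlapped. The mean was 10.6% ± 0.171 (SD, n = 3) at 3 h 30 min against 11.0% ± 0.0638 in control, a difference of -0.350 percentage points, and -0.316 points from 30 min (exact permutation test, two-sided, p = 0.1 for both, the smallest that 3 against 3 libraries allow). From control to 30 min the difference was -0.0347 points (exact permutation p = 0.5). In the inputs this share was 9.65% to 10.1% and overlapped between all conditions (exact permutation p = 0.6, 1.0 and 0.7). As a share of all counted reads, domains differed in another way: by -0.590 points from control to 30 min (exact permutation p = 0.1), by 0.0562 from control to 3 h 30 min (exact permutation p = 0.8) and by 0.646 from 30 min to 3 h 30 min (exact permutation p = 0.2). Reads in peaks made up 79.7% to 83.0% of all counted reads in control, 75.1% to 79.1% at 30 min and 79.1% to 88.5% at 3 h 30 min. A change in the mark over the whole genome and a change in the efficiency of precipitation cannot be told apart in these libraries.

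**Figure D2:**
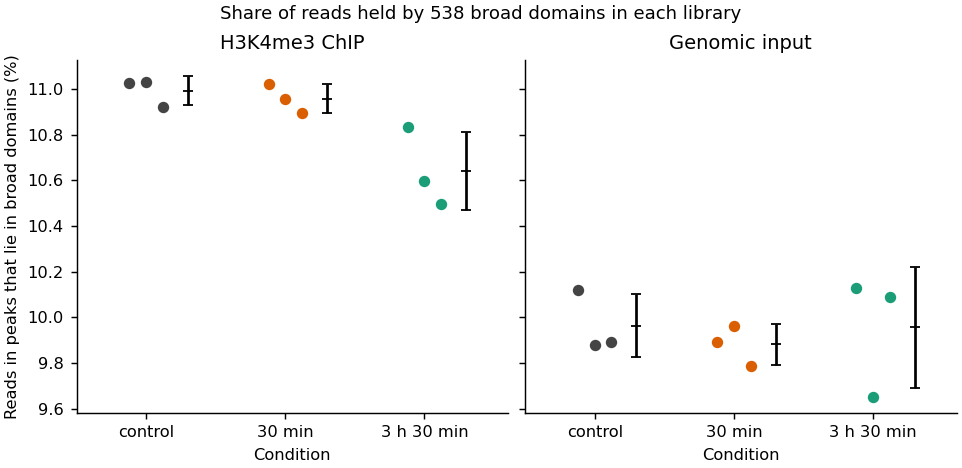
Percent of reads in peaks that lie in the 538 broad domains, for each H3K4me3 library (left) and each genomic input library (right), by condition, with the axis starting above 0. Points are libraries and bars are the mean ± SD of 3. The 3 h 30 min ChIP libraries (10.5% to 10.8%) lie below the control and 30 min libraries (10.9% to 11.0%), and all inputs lie at 9.65% to 10.1%.

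Single domains were tested for differential enrichment by the quasi-likelihood method of edgeR, fitted to the counts of 16364 peaks in 9 ChIP libraries. Every peak, and so every domain, passed the filter on low counts. A call is a Benjamini-Hochberg adjusted p-value under 0.05. The labels do not say whether libraries of a condition came from separate cultures, so p-values measure the spread between these libraries, which may be technical. Over the domains, control libraries differed from each other by less than the noise of read sampling (chi-square per degree of freedom 0.540 to 0.948), whereas the values were 1.43 to 2.59 at 30 min and 2.28 to 9.56 at 3 h 30 min. The fit took its spread from all 9 libraries together, so each p-value also uses the spread of the condition not compared. In the comparison of 30 min with control, this includes the more variable 3 h 30 min libraries. A fit without them is given below. The control libraries had different numbers of reads outside peaks, 2817628, 3683583 and 3113930, and were kept as separate samples.

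From control to 30 min, the number of called domains was small and rested on the fit: 4 were lower (0.743% of domains) and 10 higher (1.86%), against 0.281% lower and 0.532% higher of all peaks tested. In 0 domains was the change over 1.5-fold in either direction, against 0.666% of all peaks, and log2 fold changes ran from -0.13 to 0.46. The median was -0.01 over domains and 0.02 over all peaks, and 316 of 538 domains were below 0. With all counted reads as library size, 0 domains were lower and 3 higher (0.558%), against 0.202% and 0.214% of all peaks. The medians were then -0.10 over domains and -0.07 over all peaks. With loess offsets the order of the medians was reversed, at 0.027 over domains and 0.005 over all peaks. Other settings gave more calls and the opposite balance. DESeq2 gave 28 lower (5.20%) and 12 higher (2.23%), against 0.391% and 0.104% of all peaks. With only the 6 libraries compared in the fit, 87 were lower (16.2%) and 50 higher (9.29%), against 6.53% and 5.97% of all peaks. All 30 min libraries lay below all control libraries in 140 domains (26.0%) and above them in 76 (14.1%), against 17.5% and 18.3% of all peaks. Fewer calls remained when any 1 of the 6 libraries was left out, with 0 lower and 5 to 9 higher domains (0.929% to 1.67%). All peaks then had 0.00611% to 0.0611% lower and 0.0733% to 0.275% higher.

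The largest rise at 30 min was at Peak_13820, a domain of 9068 bp at chr7:142910980-142920047. Its density was 24.2, 23.7 and 23.9 in control, 30.6, 30.3 and 31.4 at 30 min, and 25.3, 24.1 and 21.5 at 3 h 30 min. The 30 min libraries stood above all others, and the other conditions overlapped. edgeR gave a log2 fold change of 0.36 ± 0.04 (SE, adjusted p = 0.00132) from control to 30 min and -0.38 (adjusted p = 5.64e-05) from 30 min to 3 h 30 min, and both calls remained under all 14 alternatives tried. Peak_11223 at chr20:22456313-22461342 had densities of 32.0, 33.3 and 33.9 in control, 41.5, 40.9 and 40.4 at 30 min and 38.7, 38.2 and 36.5 at 3 h 30 min. It rose by 0.31 on the log2 scale at 30 min (edgeR adjusted p = 0.000187) and was still above control at 3 h 30 min (0.19, adjusted p = 0.000602). With all counted reads as library size its rise at 30 min no longer passed (0.22, edgeR adjusted p = 0.0823). Peak_15673 at chr11:58623740-58627795 had densities of 16.6, 16.7 and 16.8 in control, 22.8, 20.8 and 19.9 at 30 min and 13.8, 12.8 and 11.6 at 3 h 30 min. The conditions did not overlap, and it rose by 0.35 at 30 min (edgeR adjusted p = 0.0141) and lay 0.39 below control at 3 h 30 min (log2 fold change -0.39, adjusted p = 0.000912). The rise at 30 min was lost in 5 of 13 alternatives, each of which left out 1 library.

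The falls at 30 min were small. Peak_375 at chr17:37614479-37620439 had densities of 59.3, 58.4 and 57.3 in control, 53.1, 54.9 and 52.8 at 30 min and 54.0, 55.0 and 56.1 at 3 h 30 min. Its 30 min libraries were all below control, with a log2 fold change of -0.12 ± 0.02 (SE, edgeR adjusted p = 0.0379). Peak_2071 at chr7:12417853-12425523, a domain of 7671 bp, had a log2 fold change of -0.12 (edgeR adjusted p = 0.0433) and was higher again at 3 h 30 min than at 30 min (0.12, adjusted p = 0.00187). Peak_15366 at chr10:82800125-82805843 had a log2 fold change of -0.10 (edgeR adjusted p = 0.0361). Each of these falls was lost in 8 of 14 alternatives, among them every one that left out a library.

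From control to 3 h 30 min, falls outnumbered rises among the domains. Of 538 domains, 230 were lower (42.8%) and 53 higher (9.85%), against 17.8% lower and 13.7% higher of all peaks tested. For comparison, among the 4091 peaks with the most reads, the 3530 on chromosomes 1 to 20 that were not broad domains had 18.8% lower and 12.1% higher. These peaks were denser than the domains, with a median density of 49.6 against 38.4. The part of density in this difference was not tested. Among peaks of 2500 to under 4000 bp, 29.1% were lower and 12.3% higher. The median log2 fold change was -0.05 over domains and 0.00 over all peaks, and 381 domains were below 0. Most changes were small, since 6 domains (1.12%) changed by more than 1.5-fold, against 4.08% of all peaks, and the range was -0.98 to 0.53. Scaling decided much of the split. With all counted reads as library size 71 domains were lower (13.2%) and 47 higher (8.74%), against 8.08% and 15.6% of all peaks. The medians were then 0.01 over domains and 0.07 over all peaks. The median of domains lay 0.06 below that of all peaks on either scale. A change of library size shifts every peak nearly alike, so it can hardly change this gap. With loess offsets, which can change it, the gap was 0.039 in the same direction. Leaving out 3 h 30 min replicate 2 gave 159 lower (29.6%) and 45 higher (8.36%), against 10.4% and 7.88% of all peaks. Other single omissions gave 173 to 273 lower (32.2% to 50.7%) and 42 to 71 higher (7.81% to 13.2%). All peaks then had 11.0% to 23.3% lower and 6.63% to 19.2% higher.

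From 30 min to 3 h 30 min, 227 domains were lower (42.2%) and 107 higher (19.9%), against 23.3% and 17.9% of all peaks tested. Peaks of 2500 to under 4000 bp had 29.5% lower and 22.0% higher. The 3530 narrower peaks among those with the most reads had 15.8% lower and 33.2% higher. The median was -0.05 over domains and 0.00 over all peaks, 341 domains were below 0, and the range was -1.39 to 0.65. In all, 16 domains (2.97%) changed by more than 1.5-fold, against 6.36% of all peaks, and 3 (0.558%) were called with a fall of more than 2-fold, against 2.59%. With all counted reads as library size the split turned around, to 59 lower (11.0%) and 237 higher (44.1%). All peaks then had 10.2% lower and 48.1% higher, so the shares of the domains were near those of all peaks. The medians were 0.11 over domains and 0.16 over all peaks. This comparison shares its 3 h 30 min libraries with the previous one, so the resemblance of their counts is not independent.

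**Figure D3:**
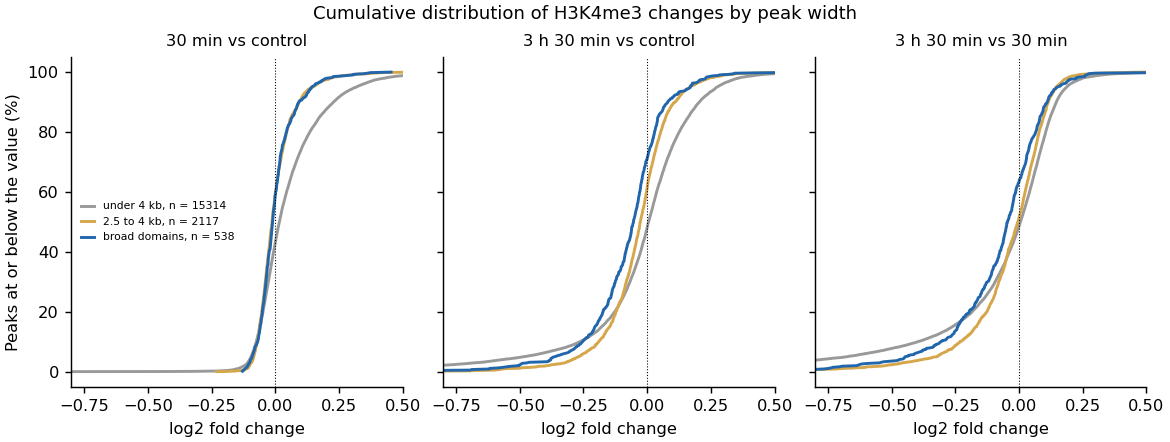
Cumulative percent of peaks (vertical axis) at or below each edgeR log2 fold change (horizontal axis) for broad domains (blue), peaks of 2500 to under 4000 bp (yellow) and all peaks under 4 kb (gray), in the 3 comparisons. Values beyond -0.8 and 0.5 lie outside the axis. In both comparisons with 3 h 30 min the blue curve crosses 0 above the others, with 381 and 341 of 538 domains below 0, and at 30 min it follows the peaks of 2500 to under 4000 bp.

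Among domains grouped by width, the share lower at 3 h 30 min than in control was 39.5% of the 319 domains under 5000 bp, 47.2% of the 123 from 5000 to under 6000 bp, 50.7% of the 71 from 6000 to under 8000 bp and 40.0% of the 25 widest. Width and fold change were nearly unrelated (Spearman's rho = -0.08 across domains). Density showed more of a trend. The 135 sparsest domains had a median log2 fold change of -0.11 at 3 h 30 min against control and 69 were lower, while the 135 densest had a median of -0.02 and 39 were lower. At 30 min the order was the other way, with a median of 0.04 in the sparsest and -0.04 in the densest 135. Across domains, density correlated with the fold change at -0.47 (30 min against control), 0.26 (3 h 30 min against control) and 0.37 (3 h 30 min against 30 min) by Spearman's rho. Among the narrower peaks the values were -0.67, 0.05 and 0.39. Density and fold change here share libraries and depth.

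Among the 10 widest domains, 6 were lower and 1 higher at 3 h 30 min than in control, where 42.8% and 9.85% of all domains and 17.8% and 13.7% of all peaks were. Peak_2218, the widest, had densities of 35.6, 35.0 and 34.8 in control, 34.1, 33.2 and 33.6 at 30 min, and 33.8, 32.4 and 30.6 at 3 h 30 min. Each treated library lay below each control library, with a log2 fold change of -0.12 ± 0.03 at 3 h 30 min (SE, edgeR adjusted p = 0.0098). Peak_13931 had densities of 29.5, 29.1 and 29.0 in control, 31.6, 29.6 and 28.6 at 30 min and 25.1, 22.4 and 21.5 at 3 h 30 min. It overlapped between control and 30 min and then fell (-0.34 against control, edgeR adjusted p = 0.00048, and -0.38 against 30 min, adjusted p = 0.000114). Peak_14875 fell most, from 33.6, 31.9 and 32.1 in control and 33.5, 31.3 and 31.5 at 30 min to 24.96, 21.6 and 19.3 at 3 h 30 min. Its log2 fold change was -0.56 ± 0.06 against control (SE, edgeR adjusted p = 0.000169) and -0.55 against 30 min (adjusted p = 7.89e-05).

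Smaller falls at 3 h 30 min passed the edgeR test at Peak_2595 (-0.08, adjusted p = 0.0119), Peak_11865 (-0.18, adjusted p = 0.00131) and Peak_10196 (-0.12, adjusted p = 0.00157). With all counted reads as library size, the falls of Peak_2218, Peak_2595, Peak_11865 and Peak_10196 no longer passed (edgeR adjusted p = 0.434, 0.911, 0.128 and 0.468), whereas those of Peak_13931 and Peak_14875 did. With loess offsets the falls of Peak_2218 (-0.07, edgeR adjusted p = 0.0836) and Peak_2595 (-0.03, adjusted p = 0.186) were also lost. So was the fall of Peak_2218 without control replicate 1 (edgeR adjusted p = 0.0502), and that of Peak_2595 without control replicate 2 (adjusted p = 0.0777) or 3 h 30 min replicate 2 (adjusted p = 0.0745). Peak_15897, the densest of the 10 widest, had 61.3, 62.4 and 60.7 in control, 63.5, 62.6 and 60.5 at 30 min and 63.8, 62.7 and 64.6 at 3 h 30 min, and did not pass the test in any comparison. Nor did Peak_5870 (edgeR adjusted p = 0.312 at 3 h 30 min against control) or Peak_2201 (adjusted p = 0.134).

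**Figure D4:**
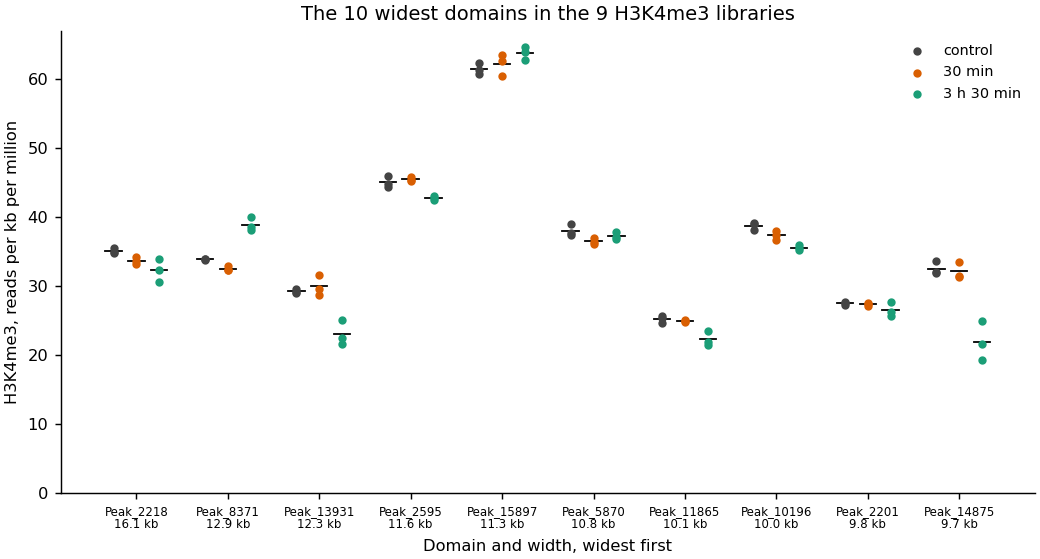
H3K4me3 density (reads per kb per 1000000 reads in peaks, axis from 0) of the 10 widest domains, ordered by width, in each of the 9 libraries. Points are libraries colored by condition and lines are means of 3. Peak_14875 and Peak_13931 fall at 3 h 30 min, Peak_8371 rises from 32.3 to 32.9 at 30 min to 38.2 to 40.0, and Peak_15897 stays between 60.5 and 64.6.

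The largest falls to 3 h 30 min were at sparse domains close to the 4 kb limit. Peak_14915 (4340 bp) had densities of 7.08, 7.60 and 7.27 in control, 8.45, 7.47 and 8.21 at 30 min and 4.16, 3.598 and 3.35 at 3 h 30 min. The last libraries lay far below the others, with a log2 fold change of -0.98 ± 0.08 against control (SE, edgeR adjusted p = 2.13e-05) and -1.12 against 30 min (adjusted p = 4.27e-06). Peak_5717 at chr4:58364970-58369165 had densities of 11.6, 10.8 and 10.8 in control, 17.7, 14.8 and 12.9 at 30 min and 6.87, 5.41 and 5.09 at 3 h 30 min. None of its conditions overlapped. Its difference of 0.46 at 30 min did not pass the edgeR test (adjusted p = 0.0615), whereas its falls of -0.93 against control (adjusted p = 0.000391) and -1.39 against 30 min (adjusted p = 1.17e-05) did.

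Peak_15320 at chr10:73900411-73905166 had densities of 20.7, 20.3 and 19.9 in control, 24.9, 21.7 and 19.6 at 30 min and 13.8, 11.7 and 12.04 at 3 h 30 min. It fell by 0.69 against control (log2 scale, edgeR adjusted p = 0.000169) and by 0.82 against 30 min (adjusted p = 2.21e-05). Peak_14914 at chr1:40879173-40883311 had densities of 13.4, 13.04 and 11.8 in control, 18.1, 16.5 and 14.8 at 30 min and 9.49, 8.48 and 5.62 at 3 h 30 min. Its conditions did not overlap, and it fell by 0.69 against control (edgeR adjusted p = 0.00264) and by 1.06 against 30 min (adjusted p = 7.7e-05). In these falling domains the 3 h 30 min libraries were spread more widely than the control libraries. The falls of all 4 passed under all 14 alternatives, of which the fit with no filter only repeats the main fit.

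The largest rise was at Peak_7227, a domain of 6931 bp at chr8:68961735-68968665. Its density was 36.6, 37.8 and 39.0 in control, 38.4, 37.9 and 38.6 at 30 min, and 57.9, 52.8 and 53.2 at 3 h 30 min. Only the last libraries stood apart, with a log2 fold change of 0.53 ± 0.03 against control (SE, edgeR adjusted p = 3.24e-06) and 0.51 against 30 min (adjusted p = 3.15e-06). Peak_7855 at chr1:267089551-267093918 had densities of 16.3, 18.2 and 17.1 in control, 15.9, 14.9 and 16.5 at 30 min and 24.8, 24.6 and 24.7 at 3 h 30 min. It rose by 0.52 against control (edgeR adjusted p = 1.39e-05) and by 0.65 against 30 min (adjusted p = 2.01e-06). This rising domain and the falling Peak_14915 lay 145 kb apart on chromosome 1. Peak_4847 at chr2:193779353-193783811 had densities of 16.2, 16.3 and 17.3 in control, 17.96, 17.3 and 21.6 at 30 min and 20.3, 22.9 and 19.98 at 3 h 30 min. It rose by 0.34 against control (edgeR adjusted p = 0.00467), and its 30 min and 3 h 30 min libraries overlapped.

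**Figure D5:**
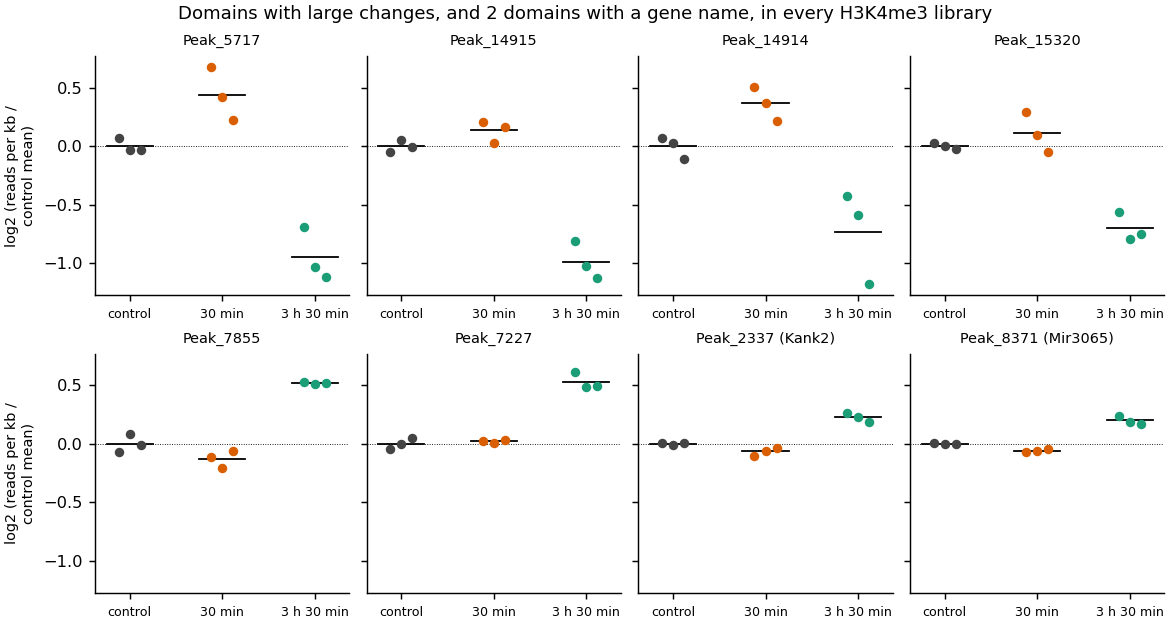
log2 ratio of the density in each library to the mean of the 3 control libraries, for 4 domains that fell (top row), 2 that rose most and 2 with a gene name (bottom row). Points are libraries and lines are the mean of each condition on the log2 scale. At Peak_5717 all 30 min libraries lie above and all 3 h 30 min libraries below control, and at Peak_7227 and Peak_7855 the 3 h 30 min libraries lie above both other conditions.

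The domains with a gene name had a common course that their selection favors. The Mir3065 domain Peak_8371 had densities of 34.0, 33.7 and 33.9 in control, 32.3, 32.3 and 32.9 at 30 min and 40.0, 38.5 and 38.2 at 3 h 30 min. Its 30 min libraries were below control, without passing the edgeR test (-0.06, adjusted p = 0.153), and it lay above control at 3 h 30 min (0.20 ± 0.02 SE, adjusted p = 0.00013). The Kank2 domain Peak_2337, 7155 bp at chr8:22814592-22821746, had densities of 24.2, 23.9 and 24.2 in control, 22.5, 23.2 and 23.5 at 30 min and 29.0, 28.3 and 27.4 at 3 h 30 min. The conditions did not overlap, and the last lay 0.23 above control (edgeR adjusted p = 0.000155).

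Dlx2 encodes a homeobox transcription factor of forebrain and neural crest development. Its domain Peak_1153, 4854 bp at chr3:58177989-58182842, had densities of 51.0, 52.0 and 50.2 in control, 48.6, 49.0 and 49.3 at 30 min and 58.0, 58.0 and 59.7 at 3 h 30 min, or 0.20 above control (edgeR adjusted p = 0.000136). Peak_4585 (AABR07044049.1), 5395 bp at chr19:53798901-53804295, had densities of 17.6, 18.4 and 18.3 in control, 16.5, 16.3 and 17.6 at 30 min and 19.8, 20.6 and 20.5 at 3 h 30 min, or 0.17 above control (edgeR adjusted p = 0.00265). From 30 min to 3 h 30 min, the contrast on which the genes had been selected, the log2 fold changes were 0.26 for Peak_8371, 0.29 for Peak_2337, 0.26 for Peak_1153 and 0.27 for Peak_4585. At 30 min all 4 domains had each library below each control library, as did 17.5% of all peaks, and none passed the edgeR test (adjusted p = 0.11 to 0.172).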

How the data were processed

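Input and H3K4me3 ChIP libraries were sequenced as single reads of 75 bp. According to the methods and the submitters' processing notes, the authors trimmed reads with Trim Galore, aligned them to Rnor_6.0 with BWA, removed multi-mapped and duplicate reads, called narrow peaks with MACS2, filtered them by reproducibility, merged them over treatments and counted reads with HTSeq. Their deposited values are unnormalized counts of reads in each merged peak. Library sizes and tests used reads in peaks, without the counter's own class lines.

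All peaks were tested together with edgeR 4.0.16 (quasi-likelihood test, TMM, condition as the one term, Benjamini-Hochberg adjustment) in R 4.3.3, checked on simulated counts. The SE is the log2 fold change divided by the square root of F. edgeR's biological coefficient of variation was 1.96%. Single values per library were compared by exact permutation tests that enumerate every split or change of signs. The code for these tests was checked against scipy 1.17.1 on random numbers. Ratios of domains to narrower peaks in ChIP libraries are given without their planned test, since the widths were called on the same libraries. Intervals from counting were not needed at these depths.

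Domains and the rule for naming them (the 10 widest, the 3 largest called falls and rises without overlap in each comparison, the 3 highest and lowest in density and in enrichment, and those nearest the width limit) were chosen with earlier results of these data known. The 4 domains with gene names and the closest pairs were named after their values were seen. The alternatives were DESeq2 1.42.0, library sizes without TMM or from all counted reads, limma 3.58.1 loess offsets with a span of 0.3, no filter or a minimum of 10 counts, only the 6 libraries compared, a replicate block, a stricter threshold of 0.01, a width of 5000 bp, and single libraries left out. Because every peak passed the filter, the fit with no filter equals the main fit and adds no support to counts of alternatives. Replicate numbers were not taken to pair the libraries. Gene lists of cell types and pathways could not be placed without an annotation of Rnor_6.0 and were not analysed here.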

Additional observations from a re-analysis of the deposited data

How the results depend on the processing

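The number of domains called at 30 min depended on the settings. Each pair of percentages here gives the share of domains, then that of all peaks tested, and none is given for the threshold of 0.01. Of the 4 lower domains (0.743%, 0.281%), 0 were left at an adjusted p under 0.01. With loess offsets (0%, 0.214%) or all counted reads as library size (0%, 0.202%), 0 were left too. Without TMM 7 were called (1.30%, 0.385%). DESeq2 called 28 (5.20%, 0.391%), and 87 were called with only the 6 libraries compared (16.2%, 6.53%). The 10 higher domains (1.86%, 0.532%) became 3 with all counted reads (0.558%, 0.214%) and 6 at an adjusted p under 0.01. They became 17 with loess offsets (3.16%, 0.458%) and 50 with only the 6 libraries compared (9.29%, 5.97%). Single libraries left out gave 0 lower (0%, 0.00611% to 0.0611%) and 5 to 9 higher (0.929% to 1.67%, 0.0733% to 0.275%). The other calls also changed with the scaling. At 3 h 30 min against control, all counted reads gave 71 lower (13.2%, 8.08%) and 47 higher (8.74%, 15.6%). The main fit gave 230 lower (42.8%, 17.8%) and 53 higher (9.85%, 13.7%). Loess offsets gave 90 higher (16.7%, 15.3%). Single libraries left out gave 159 to 273 lower (29.6% to 50.7%, 10.4% to 23.3%) and 42 to 71 higher (7.81% to 13.2%, 6.63% to 19.2%). At 3 h 30 min against 30 min, the main fit gave 227 lower (42.2%, 23.3%) and 107 higher (19.9%, 17.9%). All counted reads turned this split to 59 lower (11.0%, 10.2%) and 237 higher (44.1%, 48.1%). An adjusted p under 0.01 gave 68 higher there. Single libraries left out gave 172 to 260 lower (32.0% to 48.3%, 16.3% to 27.2%) and 84 to 121 higher (15.6% to 22.5%, 11.4% to 22.7%). The median log2 fold change of domains moved to -0.10, 0.012 and 0.11 in the 3 comparisons with all counted reads, and to 0.027 at 30 min and -0.031 at 3 h 30 min against control with loess offsets. With single libraries left out it was -0.02 to -0.00, -0.066 to -0.045 and -0.05 to -0.03. The share of reads held by domains at 3 h 30 min turned from lower to higher with all counted reads as denominator (differences of 0.0562 from control and 0.646 from 30 min), and the input shares turned too (0.0378 at 30 min against control and -0.0432 at 3 h 30 min against 30 min). The log2 ratio of domains to other peaks turned from 0.15 to -0.032 for density and from 0.15 to -0.036 for enrichment when the other peaks were those of 2500 to under 4000 bp. Of named domains, Peak_10196 (0.084), Peak_2595 (0.067) and Peak_11223 (0.041) turned upward at 3 h 30 min against 30 min with all counted reads, as did Peak_15366 (0.0059) at 3 h 30 min against control. With the replicate number as a block, 7 lower (1.30%, 0.452%) and 19 higher domains (3.53%, 1.04%) were called at 30 min. This block gave 242 lower (45.0%, 19.3%) and 56 higher (10.4%, 14.8%) at 3 h 30 min against control. At 3 h 30 min against 30 min it gave 237 lower (44.1%, 24.0%) and 105 higher (19.5%, 18.4%). Over all peaks, deviations of libraries with the same number correlated at -0.21 to 0.35 (4 of 9 over 0.1), those with different numbers at -0.24 to 0.36 (4 of 18). Over the domains the values were -0.03 to 0.73 for the same number and -0.63 to 0.49 for different numbers. These ranges overlap, so the values cannot decide whether the numbers pair the libraries. The cause of these shifts was not tested.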

Other observations

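Outside chromosomes 1 to 20, 5 peaks of at least 4 kb lay on the X chromosome, for 543 in all. The widest, Peak_14697 at chrX:68890222-68895672, had 5451 bp. Peak_2724 at chrX:11647562-11652442 had densities of 39.4, 40.9 and 40.3 reads per kb per 1000000 reads in peaks in control, 41.3, 39.8 and 37.9 at 30 min and 46.6, 49.8 and 53.1 at 3 h 30 min, with a log2 fold change of 0.31 at 3 h 30 min against control (edgeR adjusted p = 0.000417). Peak_14621 at chrX:15584152-15588413 had 25.6, 25.5 and 25.9 in control, 27.5, 25.9 and 24.9 at 30 min and 23.9, 21.7 and 19.8 at 3 h 30 min, a log2 fold change of -0.23 (edgeR adjusted p = 0.00716).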
